A study of Mus musculus with 4 samples.

Results

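Of the 31445 genomic regions that the deposited lists give as bound by OTX2 only in definitive endoderm (DE), 6343 (20.2%, 95% Wilson interval 19.7 to 20.6) lay between genes and far from any region shared with the preceding streak stage. They are called away regions here. A region was taken when its midpoint was outside every protein-coding gene, more than 1 kb and at most 100 kb from the nearest protein-coding gene end, and more than 50 kb from the midpoint of every region listed as shared by primitive streak (PS) cells and DE. All 4 lists together held 39615 regions, of which 6157 were shared by PS and DE, 1634 were found only in PS and 379 were shared by PS and a stage that the lists abbreviate as EPI. The away regions were 64.0% of the 9912 endoderm-only regions that lay 1 to 100 kb from a gene, and they are compared with the 3569 others of that set, called near regions, and with 3058 desert regions, which lay over 100 kb from any gene end and over 50 kb from a shared region. No rule used the height of a signal, because the lists hold positions only.

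The study mapped OTX2 by CUT&RUN in mouse epiblast stem cells (EpiSCs) and in the PS and DE cells made from them. The labels describe 4 PS libraries, namely 3 made with an anti-HA antibody from lines named 7H, 7H1 and 7H2 OTX2-dTAG-EGFP and 1 made with a control IgG from 7H2, all of BL6/129 hybrid genotype, and each made from 500000 cells. All 4 labelled libraries came from cells with HA-tagged OTX2, so no labelled group had untagged OTX2. EpiSCs were kept in N2B27 with Activin A at 20 ng/ml, FGF2 at 12.5 ng/ml and NVP at 175 nM, PS cells received Activin A at 40 ng/ml and CHIR at 3 µM in CDM for 16 hours, and DE cells then received Activin A at 100 ng/ml and LDN at 100 nM for 24 hours and were sorted as live cells. The labels describe no library of EpiSCs or of DE, so the libraries behind the DE calls are not known here. A difference between DE and PS in experiment or depth cannot be told apart from one in binding. No depth, height or replicate value stands behind a single region. A region absent from the PS lists is therefore not shown to be unbound in PS cells, and a change in the share of cells with OTX2 at a site cannot be told apart from a change in the strength of binding per cell.

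OTX2 is a homeodomain transcription factor of the orthodenticle family. It is needed in the early embryo for the anterior visceral endoderm, the anterior neurectoderm and the patterning of the head, and it is expressed in the epiblast and again in anterior definitive endoderm. Proteins of its class bind DNA with the core TAATCC. Definitive endoderm arises from the anterior primitive streak under high NODAL or activin signalling and forms the lining of the gut, the liver and the pancreas. In CUT&RUN an antibody tethers a nuclease to the protein under study, so that short DNA fragments are released around the places where it sits, and regions far from gene starts include many candidate enhancers as well as the promoters of non-coding genes.

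Away regions were chosen by distance from protein-coding genes only, and 78 of them (1.23%, 0.987 to 1.53) shared bases with the start window of a long non-coding RNA gene, which runs from 250 bases before to 50 bases after the RefSeq start on mm10. The shared bases are the stretches of these regions whose sequence was at hand. The first 7 sequences are all the away regions in which the shared bases held TAATCC or its reverse complement GGATTA (in capitals), and Dancr and Mirc35hg, chosen after their values were seen, are long stretches without it. Each is printed 5′ to 3′ on the strand of the non-coding gene, with mm10 coordinates of the bases shown.
Snhg12 (chr4:132308545-132308701, + strand): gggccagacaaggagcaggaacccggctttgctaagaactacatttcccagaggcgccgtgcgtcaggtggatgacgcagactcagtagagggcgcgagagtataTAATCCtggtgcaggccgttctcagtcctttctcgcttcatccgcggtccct
Gm35972 (chr15:101827607-101827750, - strand): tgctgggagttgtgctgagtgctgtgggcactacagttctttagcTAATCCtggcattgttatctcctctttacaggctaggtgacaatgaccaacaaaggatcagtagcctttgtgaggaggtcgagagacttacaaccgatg
Gm41253 (chr14:120803846-120803984, - strand): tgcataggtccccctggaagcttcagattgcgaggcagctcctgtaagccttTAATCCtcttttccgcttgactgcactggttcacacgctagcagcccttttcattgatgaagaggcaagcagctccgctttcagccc
Gm40283 (chr5:35413099-35413213, + strand): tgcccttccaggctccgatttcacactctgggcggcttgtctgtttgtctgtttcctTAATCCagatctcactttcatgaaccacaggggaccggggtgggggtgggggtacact
2810433D01Rik (chr11:102624367-102624479, - strand): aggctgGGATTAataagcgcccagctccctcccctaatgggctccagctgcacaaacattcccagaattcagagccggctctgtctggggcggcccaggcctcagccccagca
Gm35422 (chr15:87469660-87469740, - strand): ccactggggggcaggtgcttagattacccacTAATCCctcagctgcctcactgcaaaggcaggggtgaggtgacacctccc
Gm30242 (chr1:132150345-132150421, + strand): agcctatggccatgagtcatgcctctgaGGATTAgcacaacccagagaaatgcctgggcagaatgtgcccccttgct
Dancr (chr5:74092875-74093109, + strand): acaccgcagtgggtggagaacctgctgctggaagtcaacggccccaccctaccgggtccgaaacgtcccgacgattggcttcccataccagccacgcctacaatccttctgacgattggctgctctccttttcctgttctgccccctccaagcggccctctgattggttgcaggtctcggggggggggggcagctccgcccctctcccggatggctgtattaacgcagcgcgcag
Mirc35hg (chr6:30174089-30174299, - strand): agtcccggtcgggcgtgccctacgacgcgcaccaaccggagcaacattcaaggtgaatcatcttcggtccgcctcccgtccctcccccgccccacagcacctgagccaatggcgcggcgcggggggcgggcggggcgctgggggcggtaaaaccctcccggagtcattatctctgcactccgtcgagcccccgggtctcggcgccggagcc

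The core was found in 13 of 81 start windows touched by an away region (16.0%, 95% Wilson interval 9.63 to 25.6). It was found in 9 of 44 touched by a near region (20.5%, 11.1 to 34.5). The 81 windows belonged to 76 genes, and overlapping windows of the same gene, such as 1700006H20Rik, were counted separately. Intervals of window shares are therefore too narrow. Across all 11588 non-coding start windows of 300 bases the share was 8.23%, and across all 32851 windows, coding ones included, it was 7.06%. Counted on both strands and with each genome position taken singly, there were 7 copies in 8.93 kb inside away regions, or 0.784 per kb (exact Poisson interval 0.315 to 1.62), and 7 copies in the other 14.0 kb of the same windows, or 0.4997 per kb (0.201 to 1.03). All non-coding windows held 0.288 per kb. The intervals inside and outside the regions overlap. These rates were not compared by a test, and with so few copies no difference between covered and uncovered bases is claimed. The interval inside the regions lay just above 0.288 and that of the other bases included it. With 7 copies in each, this is not read as placing the core inside the regions. The median GC content was 51.7% in the touched windows and 48.3% in all non-coding windows, and its part in these shares was not tested. Among 7 motifs searched, AGATAA, which GATA factors bind, was found on either strand in 15 of the 81 windows (18.5%, 11.6 to 28.3), in 3 of the 44 near windows (6.82%, 2.35 to 18.2) and in 14.0% of all non-coding windows. TGTTTAC, which forkhead factors bind, was in 4 of the 81 (4.94%), 2 of the 44 and 4.83% of all. CTTTGAT, of the TCF type, was in 6 (7.41%), 1 and 4.67%, while TGACTCA, of the AP-1 type, was in 7 (8.64%), 4 and 6.21%. GGTGTGA, of the T-box type, was in 2 (2.47%), 1 and 4.53%, and ACAATGG, of the SOX type, was in 2 (2.47%), 0 and 5.03%. For each motif searched other than TAATCC the 95% Wilson interval of the away windows included the share of all non-coding windows.

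Away regions lay on few microRNA genes. Of 1005 microRNA hairpins with a RefSeq position, 2 shared bases with an away region. The share for other stretches of that size was not computed, so no excess or lack at microRNA genes is claimed. The region chr1:23272253-23272365 covered all 71 bases of the Mir30a hairpin, 94.1 kb from Ogfrl1, and chr13:62760667-62760827 shared 89 bases with Mir713. Others lay close without overlap, and the 71-bp region chr14:115040875-115040945 was 2726 bp from Mir17 and 3212 bp from Mir20a, members of a cluster that is known to act on growth and survival in many tissues. The mature sequences are printed with the seed, bases 2 to 8, in capitals. miR-17-5p and miR-20a-5p share the seed AAAGUGC, and miR-19a-3p and miR-19b-3p share GUGCAAA.
mmu-miR-30a-5p: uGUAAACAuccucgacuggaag
mmu-miR-30a-3p: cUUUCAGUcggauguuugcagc
mmu-miR-713: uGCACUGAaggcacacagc
mmu-miR-17-5p: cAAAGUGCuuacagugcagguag
mmu-miR-20a-5p: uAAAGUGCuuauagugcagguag
mmu-miR-19a-3p: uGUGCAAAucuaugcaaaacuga
mmu-miR-19b-3p: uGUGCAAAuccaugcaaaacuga

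Endoderm-only regions became sparser with every step away from shared regions, and the away regions were the sparse end of a continuous slope. Densities are given per Mb of intergenic positions that meet the same distance rules, so that they do not depend on how much of the genome each class covers. There were 39.7 endoderm-only regions per Mb within 5 kb of a shared midpoint (exact Poisson interval 37.0 to 42.5), 17.7 between 25 and 50 kb (16.7 to 18.7), and 16.7 between 50 and 75 kb (15.6 to 17.8). No step therefore stood at the 50 kb limit of the rule, where the intervals on both sides overlap. The density went on falling to 12.8 at 100 to 200 kb (12.2 to 13.3), 9.65 at 200 to 500 kb (9.21 to 10.1), 6.27 at 500 to 1000 kb (5.81 to 6.77) and 1.95 beyond 1000 kb (1.72 to 2.21). On the autosomes alone, an alternative chosen after the values of X and Y were seen, the last value was 3.29 (2.84 to 3.79) and the first 39.5. Over the whole class the away regions stood at 9.31 per Mb (9.08 to 9.54) in 681.6 Mb, the near regions at 22.3 (21.6 to 23.1) in 160.0 Mb and the desert regions at 4.24. The near density was thus 2.40 times the away density (2.3 to 2.5).

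**Figure D1:**
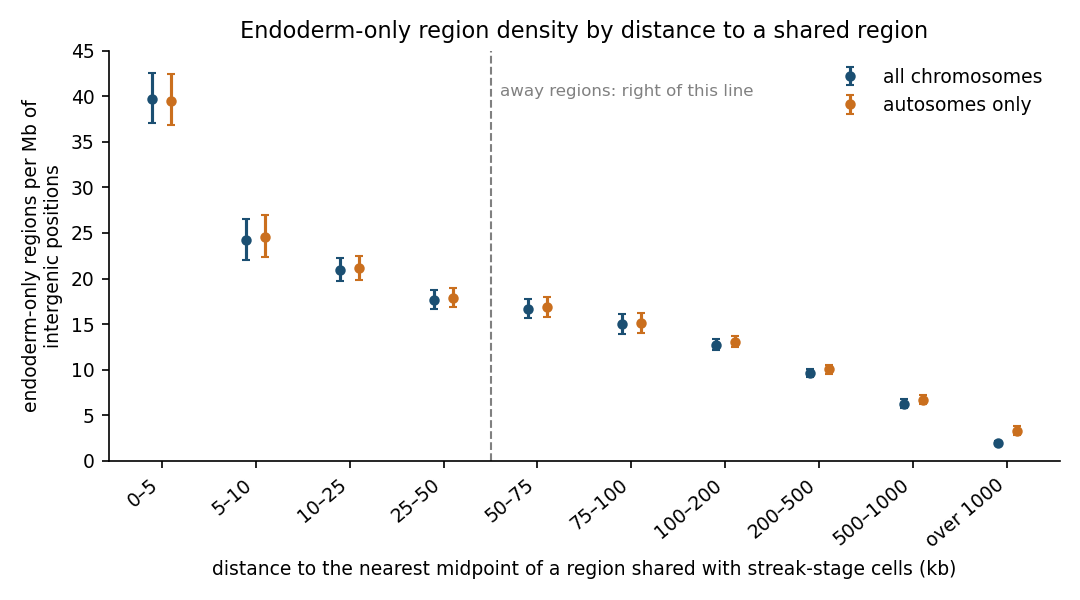
Endoderm-only regions per Mb of intergenic positions 1 to 100 kb from a gene (vertical axis) against distance in kb to the nearest shared midpoint (horizontal axis, bins). Points are densities on all chromosomes or on autosomes, bars are exact 95% Poisson intervals, and the points right of the dashed line, from 16.7 down to 1.95 per Mb on all chromosomes, are the away regions.

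The same regions also thinned out with distance from genes. Away regions numbered 13.2 per Mb at 1 to 5 kb from a protein-coding gene end (12.4 to 14.0), 10.1 at 10 to 25 kb (9.58 to 10.6) and 6.44 at 75 to 100 kb (5.90 to 7.00). Near regions were denser in each of these bins, with 26.6, 22.5 and 17.7 per Mb. The median away region lay 19.4 kb from its gene, with quartiles of 7.04 and 43.4 kb, and 174 kb from the nearest shared midpoint, with quartiles of 96.1 and 338 kb. At the limits of the rule, the closest away region was 1002 bp and the farthest 99889 bp from a gene end, while the first regions outside stood at 997 and 100120 bp. The away region closest to a shared midpoint was at 50017 bp, and the first one outside was at 50000 bp.

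Away regions stood alone more often than near regions did. Another endoderm-only midpoint, of any class, lay within 10 kb of 2438 of the 6343 away regions (38.4%, 37.2 to 39.6), of 50.1% of the near regions and of 29.0% of the desert regions. By two-sided Fisher exact tests, with Benjamini-Hochberg adjustment over the 6 tests run, the difference from the near regions was -11.7 percentage points (-13.7 to -9.66, adjusted p = 1.11e-28). This difference is not separate from the density slope above. Near regions stood at 22.3 per Mb and away regions at 9.31, and denser regions have closer neighbours. The difference from the desert regions was 9.40 points (7.38 to 11.4, adjusted p = 7.4e-19 by the same Fisher exact test). Its direction was partly set by the class rules, since a desert region cannot lie within 10 kb of a gene, and a neighbour inside or at a gene lay within 50 kb of 0 desert regions and of 40.1% of away regions. With neighbours of the same class only, an alternative chosen after seeing the data, the shares were 32.1% of away, 42.9% of near and 28.5% of desert regions, and the difference from desert regions was 3.58 points (1.60 to 5.54, adjusted p = 0.000847, Fisher's exact test). Regions are not replicates of a condition and neighbours are not independent, so these p-values are too small. With neighbours counted within 2 kb in place of 10 kb, the difference from the desert regions was 1.46 points with an adjusted p of 0.0626. The median distance to the nearest other endoderm-only region was 16.4 kb, and 533 away regions (8.40%) had none within 100 kb, against 2.21% of near and 24.4% of desert regions. Streak-only regions lay within 50 kb of 565 away regions (8.91%, 8.23 to 9.63), of 15.5% of near regions (14.4 to 16.7) and of 5.20% of desert regions (4.47 to 6.04). Regions shared by EPI and PS lay as close to 2.36% of away, 3.89% of near and 1.24% of desert regions. These last shares were described and not tested.

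The away regions were narrow. Their median width was 117 bp (95% interval 115 to 119), with a range of 62 to 844 bp, and 219 of them (3.45%) were wider than 300 bp. A width at or above the median of the whole endoderm-only list, 119 bp, was found in 48.9% of away regions, 50.9% of near regions and 56.0% of desert regions. Away regions were less often wide than desert regions, with a difference of -7.18 percentage points (-9.32 to -5.02, adjusted p = 1.39e-10, Fisher's exact test). Against near regions the difference was -2.07 points (-4.11 to -0.0154) and missed the threshold with an adjusted p of 0.0623 by the same exact test. It passed among regions at most 50 kb from a gene end, at -3.26 points with an adjusted p of 0.00803, and under no other setting tried.

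**Figure D2:**
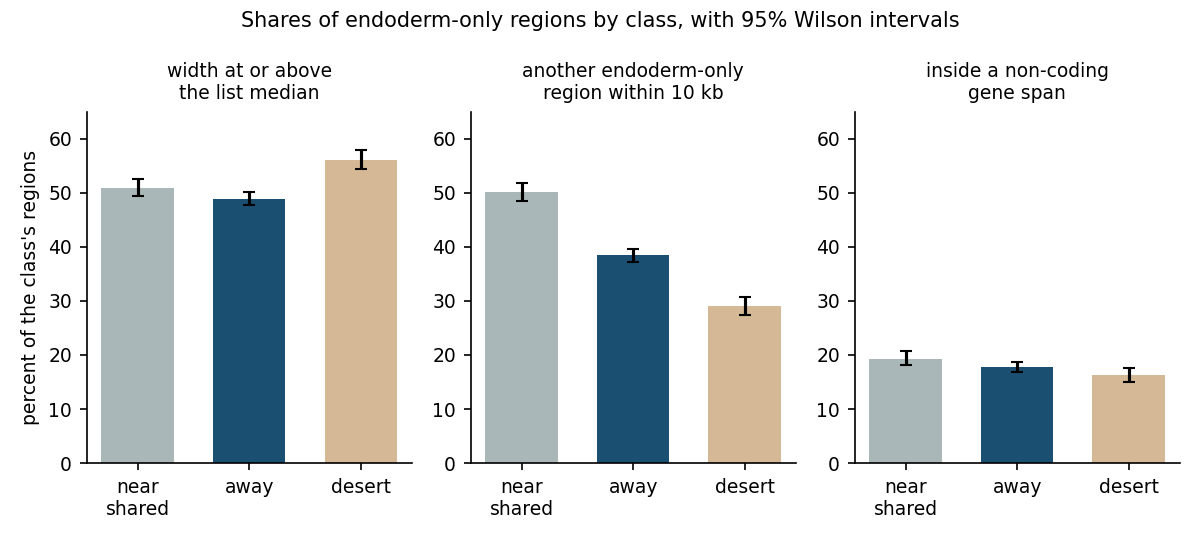
Percent of near, away and desert regions (bars, with 95% Wilson intervals) that were at least as wide as the list median, had another endoderm-only region within 10 kb, or lay inside a non-coding gene span. The middle panel has the widest spread, from 50.1% of near regions through 38.4% of away regions to 29.0% of desert regions.

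Chromosomes differed in how densely they carried away regions. Chromosome 11 was highest with 403 regions at 15.4 per Mb (14.0 to 17.01), followed by chromosome 9 with 13.2 (11.9 to 14.6) and chromosome 19 with 13.0 (11.1 to 15.0). Chromosome 7 was the lowest autosome with 8.26 (7.46 to 9.13). The X chromosome held 184 regions at 2.99 per Mb (2.57 to 3.46), below the interval of every autosome, and the Y chromosome held 1 region in 40.8 Mb. The sex of the cell lines is not given in the sources used here, and neither copy number nor how well reads could be placed was measured, so their part in these densities was not tested.

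**Figure D3:**
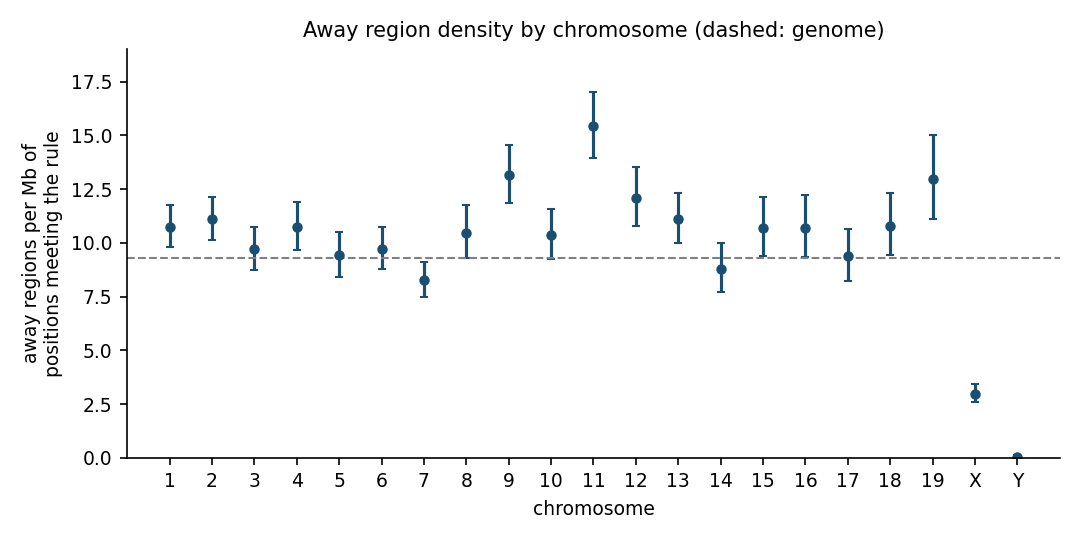
Away regions per Mb of positions that meet the rule (vertical axis) on each chromosome (horizontal axis), with exact 95% Poisson intervals. The dashed line is the value over all chromosomes, 9.31 per Mb, and X at 2.99 and Y at 0.0245 lie far below it.

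Each away region is named here by its nearest protein-coding gene, which is a position and not a target. The regions were spread thinly over 4000 genes, 24% of the 16666 genes that have any position meeting the rule. Of these genes 2581 had a single away region, 862 had 2, 467 had 3 or 4, and 90 had 5 or more. Those 90 genes held 521 regions, 8.21% of all. For 1572 of the 4000 genes every region in all 4 lists was an away region, and 1106 of those had just 1. Another 2236 genes also had endoderm-only regions of other kinds, 708 were also nearest to a shared region, and 427 were also nearest to a streak-only region. Among all 21887 protein-coding genes 3564 were nearest to a shared region, so the 708 are not read as a trait of these 4000 genes. No such count over all genes is given here for the 2236 and the 427.

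The genes with most away regions were of very different kinds. Kif26a, which encodes an atypical kinesin-family protein (chr12:112143974-112181747), had 11, all beyond its higher-coordinate end at 36.2 to 95.03 kb, and 10 of them lay in the span of the non-coding gene Gm36894. The Kif26a regions were also close to the limit of the rule, with the nearest shared midpoint at 53.9 kb, and 3 were left with the shared limit at 100 kb, 3 with genes at most 50 kb away and 5 among regions of at least 150 bp. Galnt18, which encodes an enzyme of protein O-glycosylation (chr7:111471656-111780067), had 11 as well, 4 on the lower side and 7 on the higher side at 2.25 to 77.1 kb, and none was within 576 kb of a shared midpoint. Odc1, which encodes ornithine decarboxylase, the first enzyme of polyamine synthesis (chr12:17544808-17551502), had 10 at 2.80 to 69.0 kb. Odc1 had no region of any other kind in the 4 lists.

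Sox4, an HMG-box transcription factor of many progenitor cells (chr13:28948919-28953699), also had 10 and no region of another kind. Its regions were at 2.08, 4.26, 4.81, 6.03, 10.04, 13.2, 13.3, 21.2, 61.4 and 94.3 kb, so 8 of the 10 were within 25 kb of the gene, and 8 lay in spans of non-coding genes. Isx, an intestine-specific homeobox gene (chr8:74873174-74893506), had 8 and again no other. On the lower-coordinate side these were at 1.26 kb and in a pair at 66.2 and 68.2 kb, and on the higher side in a group of 5 at 34.5 to 42.0 kb. The Isx regions were wide, with a median of 234 bp against 117 bp for the class. Kazald1, which encodes a secreted Kazal-domain protein, Lnx1, a ubiquitin ligase of the NUMB pathway, and the cation channel gene Trpm3 had 8 each. Tex43, Gm281, the vomeronasal receptor gene Vmn2r120 and the cerebellin gene Cbln4 had 7 each. Ins2, an insulin gene, had 6 at 2.81 to 58.2 kb and completed, with Odc1, Sox4, Kazald1 and Isx, the 5 genes with most regions among those with away regions only.

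**Figure D4:**
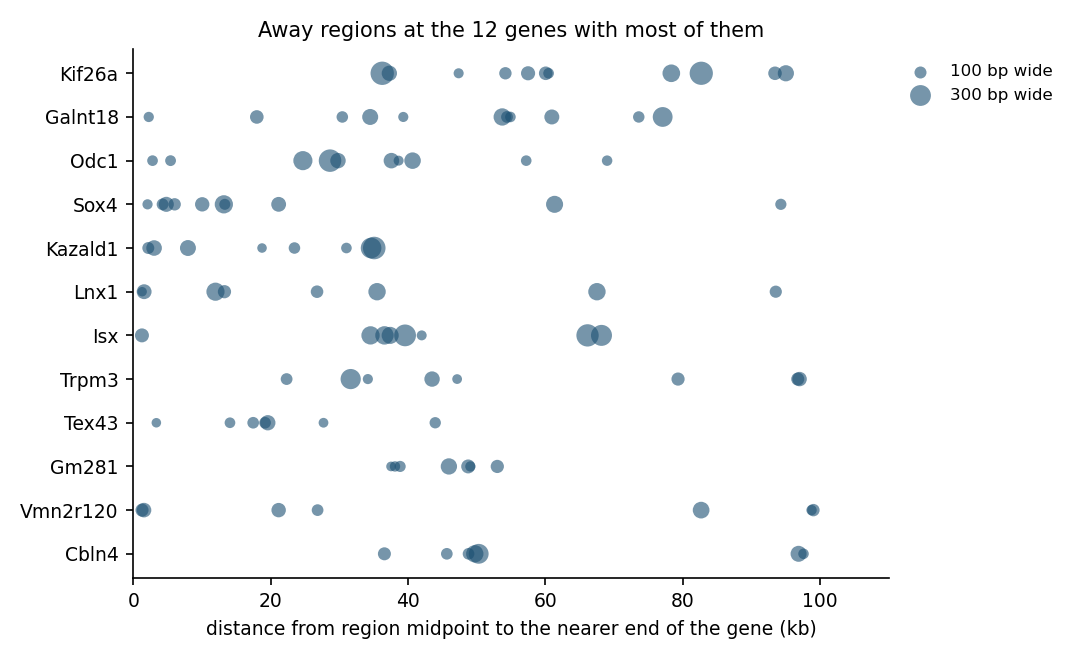
Distance in kb from each away region's midpoint to the nearer end of its gene (horizontal axis) at the 12 genes with most away regions (rows). Each disc is 1 region and its area grows with width. The 8 regions of Isx form 3 groups, at 1.26 kb, 34.5 to 42.0 kb and 66.2 to 68.2 kb, while those of Galnt18 are scattered from 2.25 to 77.1 kb.

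Most away regions did not form clusters with each other. When away regions with midpoints at most 10 kb apart were joined into chains, 4307 stood alone, 690 chains had 2 regions, 139 had 3, 37 had 4, 12 had 5, 4 had 6 and 1 had 7. Chains are ranked by their number of regions. The chain of 7 lay at chr14:13775362-13790918, 37.5 to 53.0 kb from Gm281, and its regions were 65 to 184 bp wide. A chain of 6 lay in the gap between Sohlh2, a germ-cell helix-loop-helix gene, and Dclk1, a microtubule-associated kinase gene, at chr3:55212413-55227681. Another of 6 lay between Kazald1 and the homeobox gene Tlx1 at chr19:45098005-45117047 and held the 352-bp and 294-bp regions with midpoints 0.459 kb apart. The remaining chains of 6 were spread over longer stretches, 23.4 kb near Eml4 and 29.0 kb between Aggf1 and Crhbp.

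The widest away region, 844 bp, was 71.8 kb from Frem2, which encodes an extracellular matrix protein of epithelial basement membranes, at chr3:53729961-53730804. Next came 737 bp near Spag16, a sperm axoneme gene (chr1:69801491-69802227), 616 bp near the olfactory receptor gene Olfr1002 (chr2:85641544-85642159), 615 bp near the WD-repeat gene Wdr92 (chr11:17238089-17238703) and 577 bp near Mbip (chr12:56250302-56250878). The region at Mbip had a second wide region of 450 bp at a midpoint distance of 2.39 kb from it, which reached the start window of the non-coding gene Gm19990. Olfr1002 and Wdr92 had no other region of any list.

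Genes of the endoderm, primitive streak, epiblast, epithelium, WNT, BMP and FGF lists were nearest to more away regions per Mb than genes at large. The housekeeping control was also higher, at 16.6 per Mb, with an interval that includes the value of all genes (4.52 to 42.5). Mesoderm, NODAL and retinoic acid genes had lower values with intervals that include that of all genes. The lower values did not hold under every setting. The NODAL list was at 0.652 times the density of all genes, but at 1.19 times for regions of at least 150 bp and 1.04 times with genes at most 50 kb away, and the retinoic acid list was at 0.761 times, but at 1.09 times with the shared limit at 25 kb. The 17 lists were chosen with results of these data known, genes sit in several lists, and no list was tested. For all protein-coding genes the values are 9.31 regions per Mb, 24% of genes with a region and a median of 0 per gene. That density takes in X, Y and positions far from shared regions, where away regions were sparser. At 50 to 75 kb from a shared midpoint the density was 16.7 per Mb. The lists were not matched to all genes in this distance, and its part in their values was not tested. The median space open per gene also differed, from 0 kb for definitive endoderm to 66.3 kb for neurectoderm, against 10.9 kb for all genes. Shares of genes with a region are therefore not comparable between lists. The rule itself sets which genes can enter. Of 24 definitive endoderm genes 18 were nearest to a shared region, against 3564 of all 21887 protein-coding genes. Only 11 of the 24 had any position that met the whole rule, against 16666 of the 21887.

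Among those 11 definitive endoderm genes 8 had an away region, 11 regions in all or 26.8 per Mb (13.4 to 47.9), with a median of 1 per gene. Foxa2, the forkhead pioneer factor of endoderm, had 2 at 70.7 and 74.1 kb beside 6 shared regions. Epcam, an epithelial adhesion gene, had 2 at 64.2 and 68.6 kb, and Prdm1, a zinc-finger repressor, had 2 at 79.3 and 91.8 kb. Sox17, Gata6, Otx2 itself, Krt19 and Sox7 had 1 each, those of Sox17 and Gata6 being at 74.4 kb. Those of Sox7, Krt19 and Otx2 were closer, at 1.22, 1.87 and 27.2 kb. With the gene-end limit at 50 kb none was left at Foxa2, Epcam and Prdm1, and the density of the list fell from 2.88 to 1.33 times that of all genes.

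In the anterior endoderm and foregut list 9 of 14 genes had away regions, 21 in all or 21.2 per Mb (13.2 to 32.5, median 1). Sox2, an HMG-box factor of foregut, epiblast and neural cells (chr3:34649995-34652461), had 5, at 2.07, 9.94, 12.9, 29.6 and 95.4 kb. Of these, 4 were in the span of the overlapping transcript Sox2ot, and the nearest shared midpoint was 547 kb away. Dkk1, a secreted WNT antagonist of the anterior endoderm, had 3 at 4.44 to 31.2 kb, and Pax9, a paired-box gene of the pharyngeal pouches, had 3 at 10.6 to 30.0 kb. In the liver, pancreas and gut tube list 13 of 20 genes had 26 regions, 20.6 per Mb (13.5 to 30.2, median 1). Sox9 had 4 at 3.66 to 59.1 kb. Klf5, a Krüppel-like factor of the gut epithelium, had 3 at 54.3 to 79.2 kb.

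The posterior endoderm and hindgut list had 17 regions at 5 of 14 genes, 27.7 per Mb (16.1 to 44.4, median 0). The 8 at Isx made up much of it, and without Isx the density was 19.4. Cdx2, the caudal homeobox gene of hindgut and trophoblast, had 4 in the 12.2 kb open to it, at 1.10, 1.56, 6.63 and 7.54 kb on its lower-coordinate side (chr5:147300900-147307249), and all were 52.8 to 59.2 kb from a shared midpoint and narrower than 150 bp. Hoxb9 had 2. Of the visceral and parietal endoderm list 9 of 18 genes had 17 regions, 27.9 per Mb (16.3 to 44.7, median 0.5). Lamb1 and Sparc, which encode a laminin chain and a matrix glycoprotein of the basement membrane, had 5 and 4, of which 0 and 1 were at least 150 bp wide. Ttr, which encodes the thyroxine carrier transthyretin, had 2 at 1.40 and 15.2 kb.

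Of 8 primitive streak genes with eligible positions 7 had away regions, 14 in all or 35.8 per Mb (19.6 to 60.0, median 1.5). Besides Cdx2 and Foxa2, these were Axin2, a WNT feedback gene, with 3, Fst, which encodes the activin-binding protein follistatin, with 2 at 1.79 and 29.3 kb, and T, Wnt3a and Evx1 with 1 each. In the epiblast and pluripotency list 12 of 18 genes had 24 regions, 22.0 per Mb (14.1 to 32.7, median 1). After Sox2 came Pou3f1, a POU-domain factor of the primed epiblast, with 4 at 12.2 to 81.3 kb, all in the span of the non-coding gene Gm2164. Klf4 and Prdm14 had 3 each, that of Klf4 at 9.44 to 62.9 kb. Pou5f1 had no eligible position, and Nanog had 1.16 kb of it and no region.

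Neurectoderm genes stood close to all genes in density only, with 19 regions at 12 of 17 genes, 12.3 per Mb (7.39 to 19.2, median 1). Their share of genes with a region, 70.6%, was above the 24% of all genes. Their median space open to the rule was also larger, 66.3 kb per gene against 10.9 kb. Sox1 had 4, Pax2 had 3 and Pax6 had 2, the latter within the antisense gene Pax6os1. Mesoderm genes had 6 regions at 5 of 17 genes, 5.36 per Mb (1.97 to 11.7, median 0), of which Kdr, a VEGF receptor gene, had 2. The controls held few regions in little eligible space. Ribosomal and housekeeping genes had 4 in 0.241 Mb, or 16.6 per Mb (4.52 to 42.5, median 0), above the 9.31 of all genes. Lymphocyte genes had 1 in 0.2765 Mb, at Zap70, or 3.62 per Mb (0.0916 to 20.2, median 0). With so few regions, neither control list could be told from the value of all genes.

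The signalling lists follow, and differences between them were not tested. For the WNT pathway 10 of 25 genes had 23 regions, 21.3 per Mb (13.5 to 32.0, median 0). Ctnnb1, which encodes the transducer beta-catenin, had 4 at 6.25, 26.7, 27.4 and 31.7 kb, and it had no region of another kind. The WNT inhibitor gene Apcdd1 had 4 at 17.7 to 84.6 kb. Among ligand and receptor genes Wnt7b and Fzd2 had 2 each and Wnt3a and Fzd10 had 1 each. Wnt5a, Fzd1, Rspo2 and Lgr5 had none, each with at least 48.1 kb open to the rule. They had 2, 1, 4 and 8 endoderm-only regions of other kinds. Only 24% of all genes with eligible positions had an away region, so such absences are common.

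For the BMP pathway 7 of 18 genes had 21 regions, 21.8 per Mb (13.5 to 33.3, median 0), and all the listed ligands had some. Bmp7 had 4, none of them as wide as 150 bp, Bmp2 and Bmp4 had 3 and Bmp5 had 2. The inhibitory Smad6 had 4 at 2.53 to 36.9 kb and the type II receptor gene Bmpr2 had 3. The antagonists Nog, Chrd and Grem1 had none, in 14.9, 55.4 and 22.8 kb open to the rule. Nog had 6 endoderm-only regions of other kinds and 3 shared regions. Most genes with eligible positions had no away region, so no contrast of ligands and antagonists is claimed. Among regions of at least 150 bp the BMP list was at 1.02 times the density of all genes, against 2.34 times with all widths. For the FGF and MAPK list 9 of 17 genes had 16 regions, 17.8 per Mb (10.2 to 29.0, median 1), led by the receptor genes Fgfr2 with 4 and Fgfr3 with 3 and by the ligand gene Fgf10 with 3.

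NODAL and activin genes had 5 regions at 2 of 13 genes, 6.07 per Mb (1.97 to 14.2, median 0). They were 3 at Smad3, a transducer, at 13.8 to 32.4 kb, and the 2 at Fst, and without Smad3 the density was 2.75. The receptor gene Acvr2a, the ligand gene Inhba and the transducer gene Smad2 had none with 99.0 kb, 198 kb and 100.0 kb open to the rule. They had 0, 1 and 6 endoderm-only regions of other kinds. Retinoic acid genes had 5 at 4 of 10 genes, 7.08 per Mb (2.299 to 16.5, median 0), with 2 at the synthesis gene Aldh1a3. Epithelial junction and keratin genes had 21 at 10 of 15 genes, 28.8 per Mb (17.8 to 44.0, median 1). Krt7, a simple-epithelium keratin gene, had 4 packed between 15.3 and 18.4 kb, and the cadherin gene Cdh2 and the tight-junction gene Tjp1 had 3 each.

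**Figure D5:**
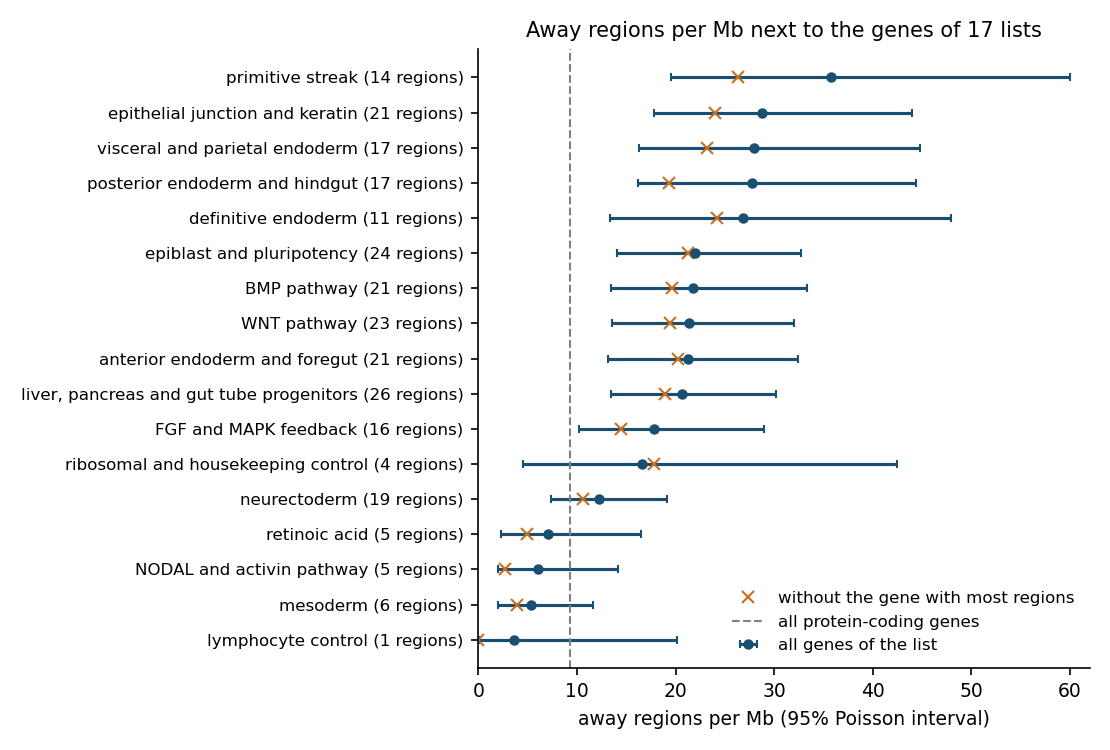
Away regions per Mb of positions that meet the rule (horizontal axis) for each of 17 gene lists (rows), with exact 95% Poisson intervals that cover counting error only. Crosses leave out the gene with most regions, and the dashed line is the value of all protein-coding genes, 9.31, which the intervals of 11 lists lie above.

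Many away regions were not free of genes in a wider sense, since the rule looked at protein-coding genes only. In total, 1130 away regions (17.8%, 16.9 to 18.8) had their midpoint inside the span of a non-coding gene, mostly long non-coding RNA genes with 1029, or 16.2%. These genes covered 10.9% of the positions that meet the rule, and non-coding genes of any type covered 13.8%. The share was 19.3% in near regions, a difference of -1.52 points (-3.13 to 0.0683), and 16.2% in desert regions, a difference of 1.59 points (-0.0387 to 3.18). Both had an adjusted p of 0.0623 by Fisher's exact test. With the limit to shared regions at 100 kb both passed, at -1.71 points (adjusted p = 0.0348) and 2.25 points (adjusted p = 0.0231) by the same exact test. Neither passed under any other setting tried. Several regions can lie in the same span, as 10 regions at Kif26a did in Gm36894, so these p-values are too small.

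Of the 78 away regions at non-coding start windows, 43 lay wholly inside 1, and they belonged to 76 genes, all of them long non-coding RNAs. Near regions touched such windows at a share of 1.15% (0.848 to 1.56) and desert regions at 0.883% (0.608 to 1.28). The sequences printed above for Snhg12 and Dancr belong to this set, together with Snhg15, Snhg16 and Snhg17. Genes named Snhg host small nucleolar RNAs in their introns. The Snhg12 region was 3.14 kb from Trnau1ap and 157 bp wide, and the Dancr region was 24.6 kb from Usp46 and 246 bp wide. The region at 2810433D01Rik was 16.3 kb from the WNT receptor gene Fzd2, and that at Gm40283 was 12.9 kb from the homeobox gene Hmx1.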

How the data were processed

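OTX2 was mapped by CUT&RUN, and the deposited files were 4 lists of genomic intervals with no score, height, p-value or library name. Per the submitters' processing notes, the build was mm10 and the tools named were MACS2 2.2.6, Bowtie2 2.3.5.1, Picard 2.26.10, bedtools 2.30 and also SAMtools 1.14. Tool settings, peak threshold, any pooling of replicates and the way regions were assigned to lists were not given in the sources used here. Depth is unknown. Such lists count as called or not called, and a weak peak just under a threshold looks the same as none.

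Intervals were read as 1-based positions and placed by midpoint against 21887 protein-coding genes of the RefSeq table for mm10, and all 323 list symbols were found in it. Region densities divide counts by the length of positions that meet the same rule. Shares carry 95% Wilson intervals, densities exact Poisson intervals, and differences Newcombe intervals, which cover counting error only. Shares were compared by 6 two-sided Fisher exact tests with Benjamini-Hochberg adjustment (scipy 1.17.1, statsmodels 0.14.6) at 0.05. These treat regions as independent. The 3 planned tests of TAATCC in 200 bp around midpoints were not run, because no genome sequence was used here. Promoter and microRNA sequences are from RefSeq (mm10). The scripts were tested on simulated data.

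Genes were named by rule: the 12 with most away regions, up to 3 per list with at least 2, those at the 5 widest regions and at the 3 chains with most regions (ties went to the shortest stretch), and the 5 with most regions among those with away regions only. Other genes named were chosen after their values were seen. An item that the rule names is not reported here. The regions, lists and tests were chosen with earlier results of these data known. Alternatives merged regions, set a minimum width, moved each distance limit, counted all genes, or kept autosomes only.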

Additional observations from a re-analysis of the deposited data

How the results depend on the processing

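Of 78 repeats of the counts, the density ratio and the tests under other settings, no ratio or difference changed direction. The ratio of near to away density, 2.40, was 2.56 for regions of at least 150 bp, 2.57 with the shared limit at 25 kb, 2.23 with genes at most 50 kb away, 2.84 with all genes, coding or not, and 2.12 on autosomes. With regions of at least 150 bp, 2082 away regions and 1669 genes were left. The tests of width and of non-coding spans crossed the threshold under a setting given beside them in the report (differences of -3.26, -1.71 and 2.25 points), and the neighbour test against desert regions lost its call at 2 kb (1.46 points). The causes of these shifts were not tested.

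At the named genes 131 of 504 repeated counts moved by over 1.5 times, 44 of them with regions of at least 150 bp and 44 with non-coding genes counted. The list densities relative to all genes moved out of their intervals in 4 of 102 repeats, all alternatives chosen after seeing the data: definitive endoderm (1.33 with genes at most 50 kb away), BMP (1.02 for wide regions) and lymphocyte genes (0 for wide regions and with the shared limit at 100 kb). No paired analysis was possible because the lists hold no values per library. No depth or height is given, so how firmly a single region was called could not be weighed.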

Other observations

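Sensory receptor genes held few away regions for the space around them, a pattern noticed in the data. Among 1003 olfactory receptor genes with eligible positions, 85 (8.47%) had an away region, 95 in all or 4.21 per Mb (exact Poisson interval 3.41 to 5.15). Among 330 vomeronasal receptor genes 30 (9.09%) had 40 regions, 2.52 per Mb (1.80 to 3.43). All other protein-coding genes stood at 9.65 per Mb (9.41 to 9.89), with a region at 25.3% of those with eligible positions. Shared regions were also scarce at these families. They were nearest to 30 of 1110 olfactory and 18 of 353 vomeronasal receptor genes, against 3516 of 20424 other genes. The low density is therefore not read as a trait of the away regions. Both families nevertheless supplied extremes: Vmn2r120 had 7 of the 40 vomeronasal regions and Olfr1002 the 616-bp region, the third widest of all. These genes lie in large arrays of similar copies, and how well reads could be placed there was not measured.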
